A study of Homo sapiens with 12 samples.

Results

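The baseline transcriptome of cultured human brain microvascular endothelial cells was read from the 3 libraries that received non-silencing siRNA and stayed in control glucose. These are 3 of the 12 samples of a study that lowered GLUT1, the glucose transporter encoded by SLC2A1, with siRNA and exposed the cells to high glucose. All 3 libraries carry the non-silencing genotype label, were transfected for 48 hours and were grown in the complete medium of the commercial supplier of the cells. The other 9 samples, in 3 groups, received siGlut1, high glucose or both, and no comparison with them is made here. No untransfected cells are described, so that every level below is that of transfected cells in culture. The labels give neither the glucose concentration of the control medium nor the number of donors, and do not say that the replicate numbers mark separate cultures. Spreads between libraries may therefore be technical, and ± marks the SD over the 3 libraries (n = 3) throughout.

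Brain capillary endothelial cells form the blood-brain barrier. Tight junctions close the gap between neighbouring cells, so that glucose, amino acids and other nutrients cross through solute carriers, while ATP-driven efflux pumps return many lipophilic compounds to the blood. In brain tissue this state is held by Wnt and beta-catenin signalling from neighbouring cells and is marked by high SLC2A1, CLDN5, ABCB1, MFSD2A and SLCO1C1 and by little PLVAP. General endothelial identity rests on junctional and receptor genes such as CDH5, PECAM1 and TEK and on transcription factors of the ETS, SOXF and GATA families.

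The 3 libraries held 49500006, 40135082 and 62209428 counts. After the entries of the Y chromosome, XIST and names shared by X and Y were set aside, 23251 gene entries remained. Levels are given in RPKM, reads per kilobase of gene length scaled to the library total, the only deposited unit in which different genes can be compared. An entry was counted as detected at 1 RPKM or more in each of the 3 libraries. By that rule 10819 entries, or 46.5%, were detected, and 626 more reached 1 RPKM in 1 or 2 libraries only. Each count of detected list or family members below is to be read beside the 46.5% of all entries. That share includes 1215 microRNA and 368 small nucleolar RNA entries, of which 27 and 55 were detected. It is therefore lower than the share without them, and lists only a little above it are not set apart. A mean of 100 RPKM or more was reached by 638 entries (2.74%), 10 to 100 RPKM by 5052 (21.7%), 1 to 10 RPKM by 5475 (23.5%) and 0.1 to 1 RPKM by 2628 (11.3%). The remaining 9458 (40.7%) lay under 0.1 RPKM, 6254 of them without a count in any library. A count of 0 in all 3 libraries allows up to 3 of 151844516 counts, 0.0198 CPM, or 0.00802 RPKM at the median entry length of 2465 bases. This floor covers counting error only and takes each count as independent. Every count in the 3 libraries was even, so that the floor is too low if counts came in pairs. None of the 393 olfactory receptor entries, which endothelium should lack, was detected, and 367 of them had no count. Library 3 stood apart from the other 2 for some genes, VWF and CLDN5 among them, so that values are given per library and the pattern is described at the end.

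**Figure D1:**
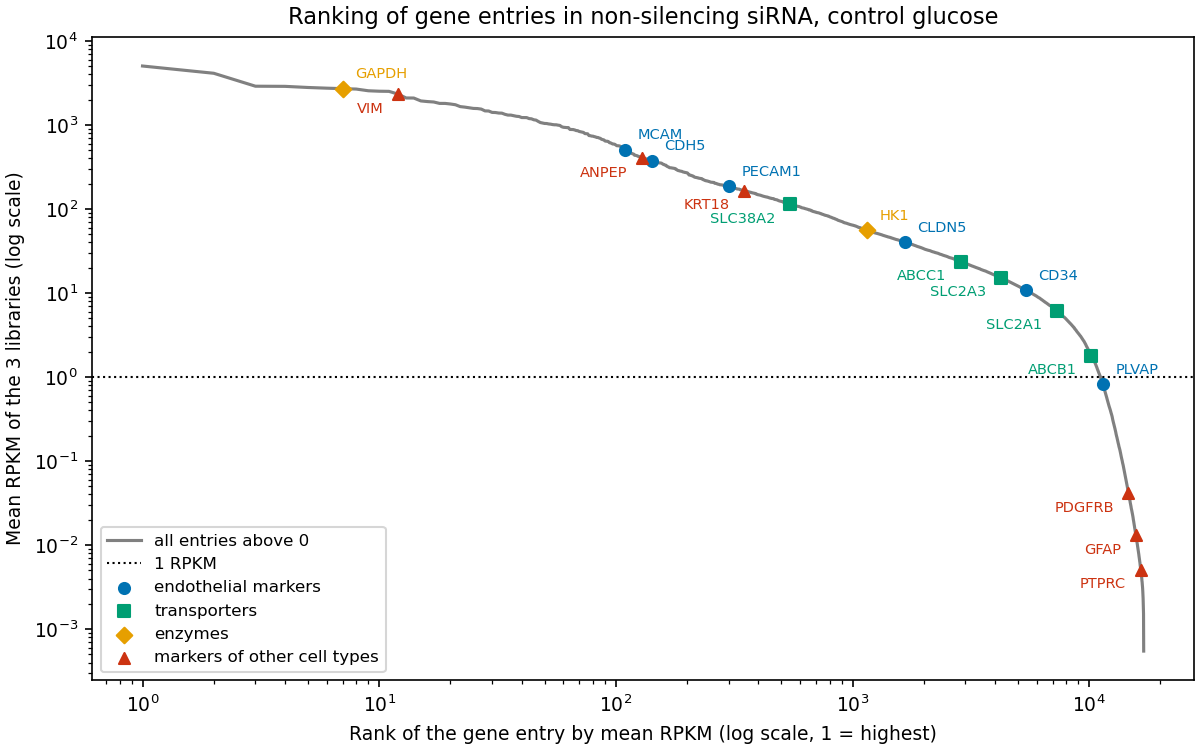
Mean RPKM of the 3 libraries (log scale) against the rank of each gene entry (log scale), with selected endothelial markers, transporters, enzymes and markers of other cell types on the curve of all entries above 0. MCAM at 509 RPKM and CDH5 at 377 RPKM lie near the top, CLDN5 and SLC2A1 lie further down at 40.5 and 6.19 RPKM, and PDGFRB, GFAP and PTPRC lie below 0.1 RPKM.

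The most abundant transcripts were those of protein synthesis, the actin cytoskeleton, iron storage and glycolysis. EEF1A1, the elongation factor that brings aminoacyl-tRNA to the ribosome, was first with 4756, 5605 and 4706 RPKM. TMSB4X, which sequesters actin monomers, followed with 3886, 4667 and 3793 RPKM. Library 2 was the highest of the 3 for both genes. The ranges of the next genes, ACTB (2887 ± 203 RPKM), FTL (2876 ± 286 RPKM), TMSB10 (2788 ± 245 RPKM) and ACTG1 (2736 ± 214 RPKM), overlapped, so that their order is not settled by these libraries. FTL and FTH1, the ferritin chains, had 2876 and 1895 RPKM on average. GAPDH held 2682, 2699 and 2732 RPKM, a CV of 0.949%. RPS18, RPS2, RPLP1, RPL41, RPL37A, RPLP0, RPS6 and RPL7A, proteins of the cytosolic ribosome, lay between 1802 and 2548 RPKM, beside TPT1 (2507 RPKM). VIM, the intermediate filament protein of mesenchymal and endothelial cells, had 2328 ± 289 RPKM, and LGALS1, a galectin, 1773 ± 51.4 RPKM. Several of these genes have processed pseudogenes, and no source used here says how reads shared with them were counted. The 10 entries with the most counts took 6.24 to 7.59% of the counts of a library, and the first 1000 took 54.2 to 55.8%.

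Endothelial surface genes were high. Of 28 endothelial surface markers, 27 were detected (96.4%, against 46.5% of all entries), 17 of them at 100 RPKM or more, with a median of 125 RPKM against 0.7 RPKM over all entry names. The highest was MCAM, a junctional adhesion molecule also known as CD146, with 508, 506 and 514 RPKM. CDH5, the VE-cadherin of the adherens junction (hg19 chromosome 16, 66400525 to 66438689), had 382, 406 and 343 RPKM. PECAM1, the platelet endothelial adhesion molecule (hg19 chromosome 17, 62396777 to 62407083), had 168, 218 and 169 RPKM. The MCAM values lay above those of CDH5 in every library, and those of CDH5 above those of PECAM1.

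PROCR, the endothelial protein C receptor, had 345, 335 and 417 RPKM, and ENG, a co-receptor for BMP ligands, had 398, 359 and 329 RPKM. The values of CDH5, PROCR and ENG overlapped. ECSCR (320.0 ± 17.8 RPKM), MMRN1 (297 ± 86 RPKM) and ICAM2 (233 ± 46.1 RPKM) followed. VWF, the platelet-binding glycoprotein stored in Weibel-Palade bodies (hg19 chromosome 12, 6058040 to 6233836), had 213, 269 and 94.7 RPKM. Library 3 was well below the other libraries for VWF, and the ratio of highest to lowest was 2.84.

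Receptor genes of the VEGF and angiopoietin systems ran from TIE1 (193 ± 28.3 RPKM) and NRP1 (102 ± 4.41 RPKM) to FLT1 (14.2 ± 1.58 RPKM). KDR, the main VEGF receptor, had 87.7, 101 and 77.6 RPKM, and TEK, the angiopoietin receptor, 36.4, 45.7 and 40.6 RPKM. The level of FLT1 was 0.163 ± 0.0384 of that of KDR (mean of the per-library ratios). NOS3, the endothelial nitric oxide synthase, was steady at 25.2, 25.9 and 24.5 RPKM. CD34, SELE and THBD were the lowest detected members, with 11.2, 15.2 and 5.93 RPKM, 5.03, 8.64 and 1.5 RPKM and 4.05, 5.59 and 5.07 RPKM respectively. For CD34 and SELE library 3 was again the lowest and library 2 the highest. PLVAP, which forms the diaphragms of fenestrae and is low in brain capillaries, was the only member below 1 RPKM in every library, with 0.857, 0.934 and 0.655 RPKM.

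EGFL7, a secreted endothelial protein (hg19 chromosome 9, 139553308 to 139567130), had 226, 192 and 173 RPKM. The entry MIR126 (hg19 chromosome 9, 139565054 to 139565138) lies within the EGFL7 interval and gives rise to an endothelial microRNA with these mature sequences from RefSeq (GRCh38.p14, plus strand), shown because the host gene ranks among the upper endothelial markers, with the seed, bases 2 to 8, in capitals.
hsa-miR-126-5p: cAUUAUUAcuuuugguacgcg
hsa-miR-126-3p: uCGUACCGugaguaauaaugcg
The 2 arms have different seeds. The MIR126 entry of 85 bases held 64, 22 and 54 counts, or 14.4, 6.11 and 9.66 RPKM. Reads of EGFL7 precursor RNA and of the hairpin cannot be told apart in these counts, and mature microRNA was not measured. Of 1215 microRNA entries, 27 were detected.

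Transcription factors of the endothelial lineage were present at moderate levels. Of 30, 26 were detected, with a median of 14.9 RPKM. EPAS1, the hypoxia-inducible factor 2 alpha subunit, was the highest with 144, 175 and 103 RPKM. The ETS factors FLI1 (56.7, 66.4 and 59.3 RPKM), ELK3 (58.1 ± 6.43 RPKM), ERG (33, 35.4 and 35.5 RPKM), ETS2 (27.9 ± 1.59 RPKM) and ETS1 (24.7 ± 1.33 RPKM) were all detected. The values of FLI1 lay above those of ERG in each library.

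The 3 SOXF genes were graded, with SOX7 at 45.4, 49.4 and 45.3 RPKM, SOX18 at 25.4, 32 and 14.4 RPKM and SOX17 at 12.1, 11.6 and 9.31 RPKM. SOX18 was lowest in library 3, while SOX7 differed little between libraries. HHEX (53.2 ± 0.969 RPKM) and BCL6B (54 ± 6.65 RPKM) were in the same range as SOX7. LYL1 (36.7 ± 4.49 RPKM), TAL1 (15.8 ± 1.37 RPKM), GATA2 (19.9 ± 1.2 RPKM) and LMO2 (13.4 ± 2.49 RPKM), regulators shared by endothelial and blood cell development, were detected. The flow-responsive factors KLF2 and KLF4 had 13.6, 13.8 and 13.9 RPKM and 1.03, 1.72 and 1.2 RPKM. The 4 members that were not detected were TBX3 (0.774 ± 0.206 RPKM), HEY2 (0.589 ± 0.17 RPKM), CASZ1 (0.41 ± 0.0321 RPKM) and ETV2 (0.359 ± 0.0792 RPKM), the last a factor of the embryonic endothelial precursor.

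Genes that set arterial, venous and lymphatic identity were mixed. NR2F2, a factor of venous endothelium, had 50.5, 55.4 and 47.3 RPKM, and EPHB4, a venous receptor, had 91.7, 102 and 75.2 RPKM. EFNB2, the arterial ligand of EPHB4, had 9.44, 11.1 and 6.99 RPKM, so that EPHB4 was 9.88 ± 0.804-fold higher per length. BMX, a kinase gene used as an arterial marker, had 54, 68.5 and 44.9 RPKM. The arterial connexin genes GJA5 and GJA4 lay at 0.0396 and 0.0902 RPKM, HEY2 at 0.589 RPKM, and ALPL and FBLN5 at 0.0436 and 0.039 RPKM. In all, 10 of 17 arterial and 7 of 11 venous members were detected, with medians of 4.61 and 3.92 RPKM. Of 9 lymphatic members, 6 were detected. LYVE1, a hyaluronan receptor, was the highest of them with 48.1, 66.1 and 47.2 RPKM. PROX1, the factor that specifies lymphatic endothelium, had 1.36, 1.91 and 1.29 RPKM, and its partner markers FLT4 and FOXC2 had 3.92 ± 0.427 RPKM and 12.6 ± 1.87 RPKM. PDPN, podoplanin, had no count in any library, and CCL21 had 0.0359 RPKM.

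Among regulators of the brain endothelial state, the listed Wnt receptors and co-receptors were detected, while the nuclear factors differed widely. Of 25 members, 13 were detected, with a median of 2.33 RPKM, beside 46.5% of all entries. CTNNB1, beta-catenin, had 115, 124 and 108 RPKM. FZD4, the Frizzled receptor for Norrin and WNT7, had 46.4, 42.4 and 46.3 RPKM, and FZD6 had 24.7 ± 3.14 RPKM. The co-receptors LRP5 and LRP6 had 24 ± 2.97 RPKM and 4.07 ± 0.349 RPKM, TSPAN12 had 14.4 ± 2.77 RPKM, and the WNT7 co-receptor pair GPR124 (ADGRA2) and RECK had 7.95, 10.8 and 4.23 RPKM and 7.69, 8.24 and 9.7 RPKM. GPR124 was lowest in library 3 and RECK was highest there.

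Of the nuclear factors, SOX17 and PPARD, a lipid-activated nuclear receptor (11.1, 9.75 and 9.91 RPKM), were detected. LEF1, a nuclear partner of beta-catenin, and FOXQ1, a factor enriched in brain endothelium, had no count in any library. FOXF2 had 0.00464 RPKM. TCF7, another partner of beta-catenin, had 0.65 ± 0.0426 RPKM, and the Wnt target genes AXIN2, APCDD1 and NKD1 had 0.457, 0.139 and 0.0321 RPKM. None of these target genes reached 1 RPKM in any library, and other Wnt targets were not read as a set. Beside LEF1 and TCF7, the list held no other member of their family. The receptor genes TNFRSF21 and TNFRSF19 of the same list had 25.3, 26.8 and 21.8 RPKM and 0.389 ± 0.108 RPKM. SMO, the Hedgehog signal transducer, had 2.33 ± 0.101 RPKM, with its target GLI1 at 0.078 RPKM and the ligand SHH at 0.06 RPKM.

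**Figure D2:**
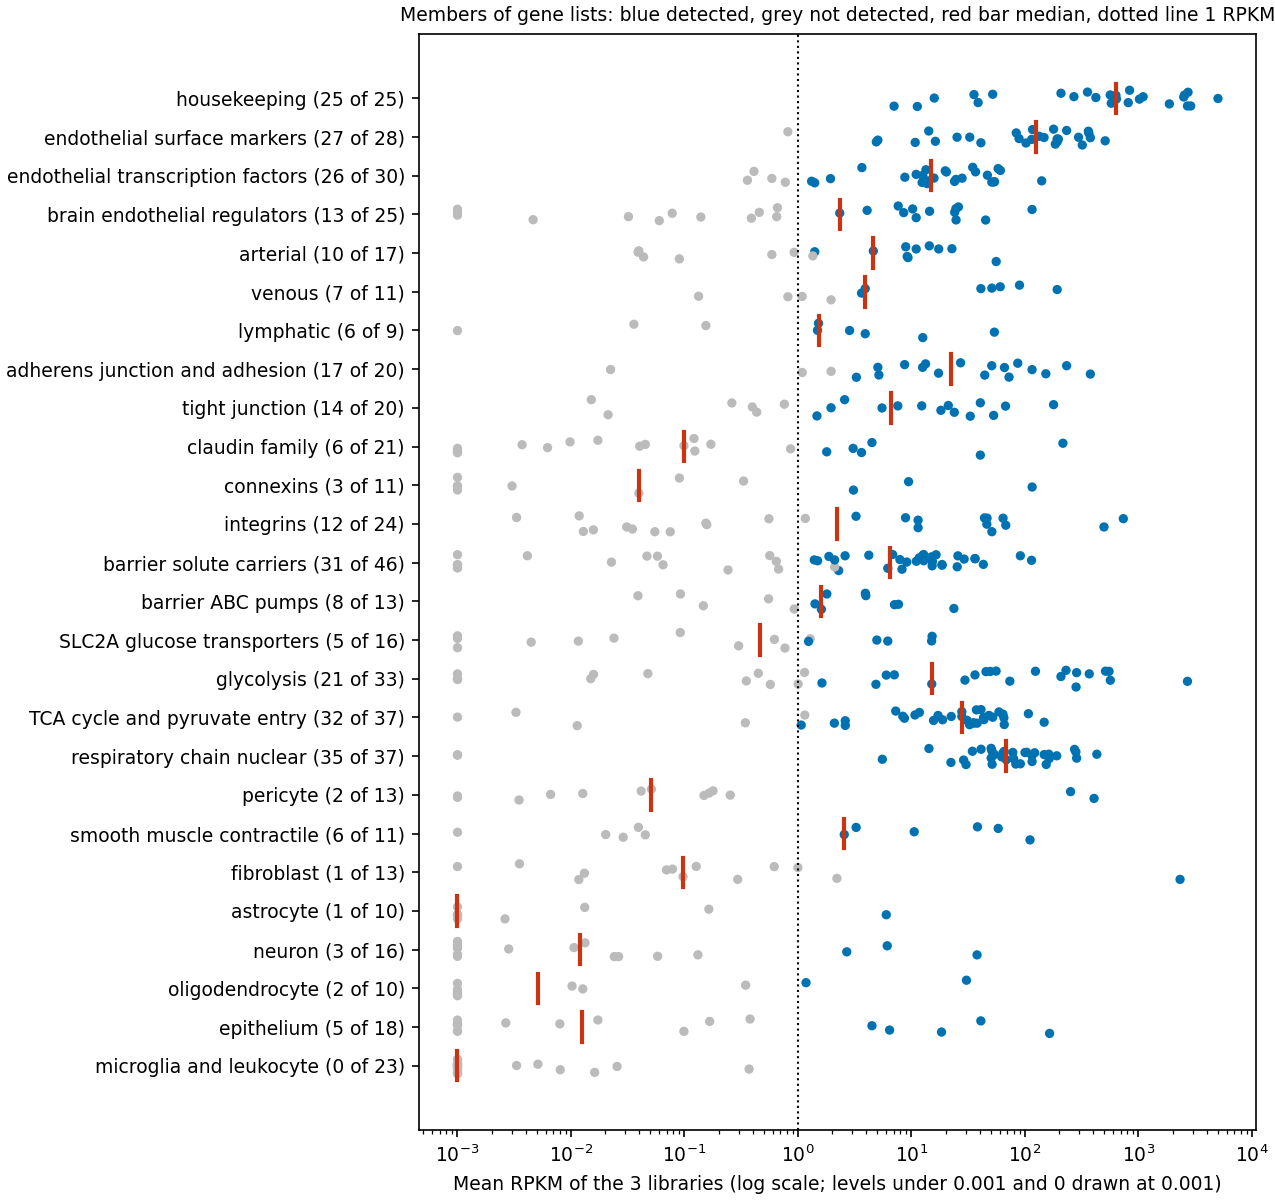
Mean RPKM of the 3 libraries (log scale) for each member of 26 gene lists, in blue where detected in all 3 libraries and in grey otherwise, with the median as a red bar and 1 RPKM as a dotted line. Endothelial surface markers centre on 125 RPKM and nuclear respiratory chain genes on 68.5 RPKM, while the microglia and leukocyte list has no detected member of 23.

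Junction genes were led by adherens junction components. Of 20 adherens junction and adhesion genes, 17 were detected, with a median of 22.2 RPKM. Behind CDH5, the catenins CTNNA1 (155, 162 and 142 RPKM) and CTNNB1 stood above JUP, plakoglobin (88.4, 106 and 64.9 RPKM). CDH2, the N-cadherin, had 19.4, 15.3 and 17.4 RPKM, and CDH5 exceeded it 22 ± 3.95-fold per length. CTNND1, p120-catenin, was low for this group with 3.44, 3.71 and 2.67 RPKM. L1CAM was the member under 0.1 RPKM, at 0.0223 RPKM.

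The inducible leukocyte adhesion genes were lower and more variable. ICAM1 had 40.1, 62.2 and 30.5 RPKM, SELE 5.03, 8.64 and 1.5 RPKM, SELP 2.06, 3.2 and 0.614 RPKM and VCAM1 0.836, 2.01 and 0.427 RPKM. Each of these 4 genes was highest in library 2 and lowest in library 3. ICAM2, the constitutive ligand of leukocyte integrins, went the other way and was highest in library 3 (205, 208 and 286 RPKM).

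Of 20 tight junction members, 14 were detected (70.0%), with a median of 6.54 RPKM. ESAM, an adhesion molecule at endothelial tight junctions, was the highest with 181, 189 and 166 RPKM. F11R, which encodes JAM-A, had 62.5, 75.4 and 64.5 RPKM, and JAM3 had 55.8, 53.6 and 49.5 RPKM. CLDN5, the main claudin of the blood-brain barrier (hg19 chromosome 22, 19510547 to 19512860), had 47, 52.2 and 22.2 RPKM, with libraries 1 and 2 close together and library 3 lowest. The scaffold gene TJP1, encoding ZO-1, had 21.3, 21.8 and 20.2 RPKM, and CGNL1, paracingulin, had 18.2, 19.5 and 16.9 RPKM.

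OCLN, occludin, was below 1 RPKM in every library with 0.425, 0.417 and 0.458 RPKM, and TJP1 exceeded it 48.9 ± 4.25-fold per length. JAM2 (0.407, 0.53 and 0.252 RPKM), LSR (0.688, 0.746 and 0.841 RPKM) and CGN, cingulin (0.255, 0.231 and 0.298 RPKM), were likewise under 1 RPKM in every library. F11R exceeded JAM2 154, 142 and 257-fold in libraries 1, 2 and 3. LSR marks the tricellular contact together with MARVELD2, tricellulin, which was detected with 1.27, 1.73 and 1.41 RPKM. MARVELD3 and TJP3 lay at 0.0213 and 0.0151 RPKM.

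The claudin family was dominated by a member other than CLDN5. Of 21 claudins, 6 were detected and 11 had under 0.1 RPKM, 4 of these without a count. CLDN11, better known from myelin and the Sertoli cell barrier, had 237, 201 and 210.3 RPKM, 5.04, 3.84 and 9.48 times the level of CLDN5 in libraries 1, 2 and 3. CLDN7 (4.55, 3.93 and 4.99 RPKM), CLDN12 (3.08, 3.09 and 4.72 RPKM), CLDN14 (2.82, 2.85 and 3.52 RPKM) and CLDN15 (2.22, 1.68 and 1.48 RPKM) were the other detected members. CLDN1 had 0.842, 0.342 and 1.4 RPKM and crossed 1 RPKM in library 3 only. CLDN3, which has been debated as a barrier component, had 0.09, 0.111 and 0.0955 RPKM. CLDN16, CLDN20, CLDN4, CLDN18, CLDN9 and CLDN2 lay between 0.00371 and 0.0452 RPKM, and CLDN8, CLDN17, CLDN19 and CLDN22 had no count.

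Of 11 connexin and pannexin genes, 3 were detected. GJA1, connexin 43, had 113, 103 and 131 RPKM and was highest in library 3. PANX1 (8.81, 9.16 and 10.3 RPKM) and GJC1, connexin 45 (3.07, 2.97 and 3.22 RPKM), followed, and their 3 libraries differed little. The vascular connexin genes GJA4 and GJA5 had 0.0707, 0.0873 and 0.113 RPKM and 0.0233, 0.0863 and 0.00926 RPKM, and GJA3 had 0.00302 RPKM. GJB1, GJB2, GJB6 and GJD2 had no count.

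**Figure D3:**
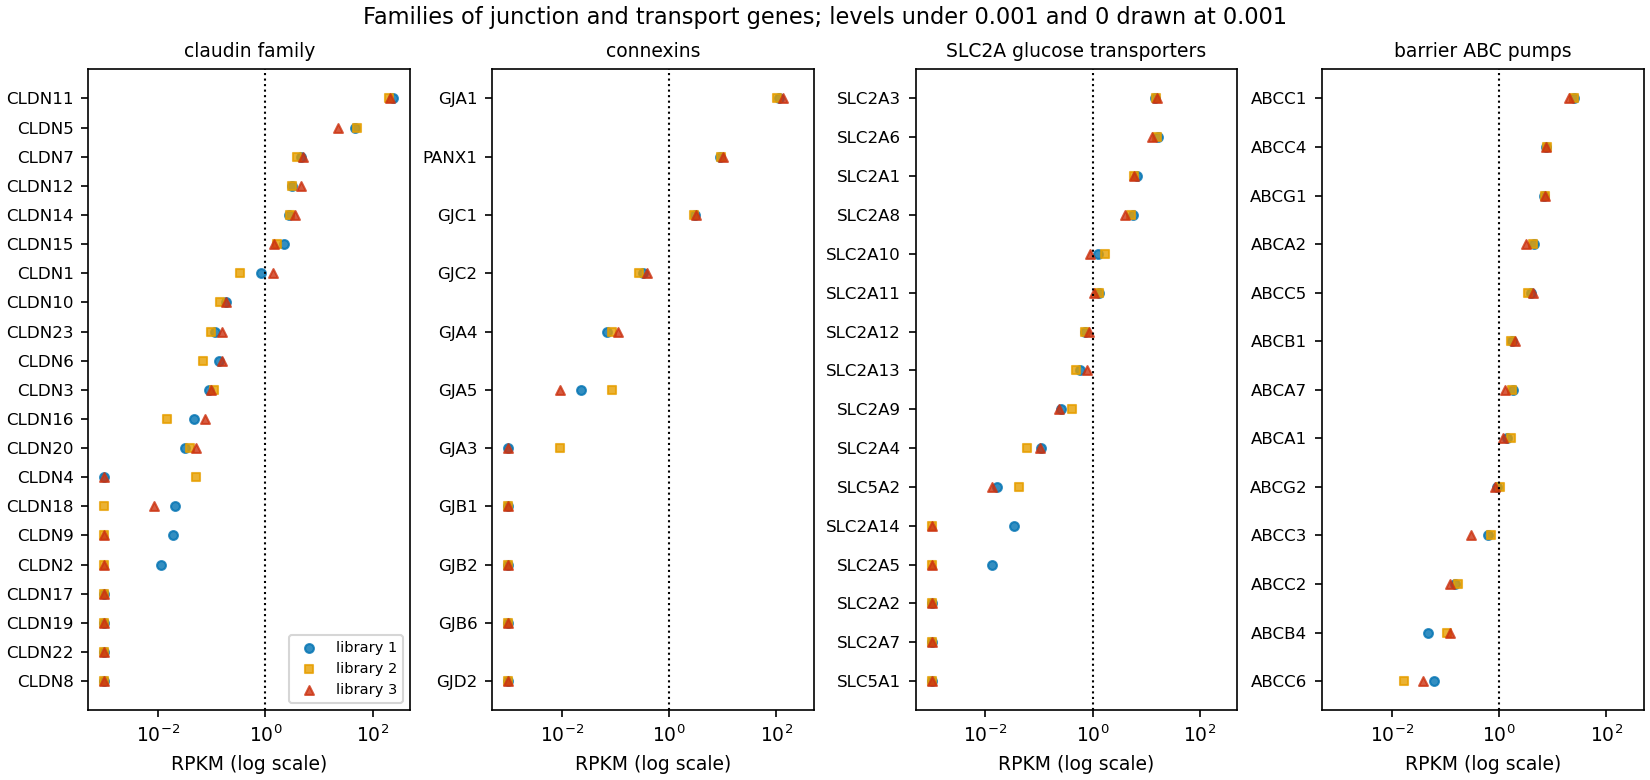
RPKM in each of the 3 libraries (log scale) for claudins, connexins with PANX1, glucose transporters and ABC pumps, ordered by mean within each panel, with 1 RPKM as a dotted line. CLDN11 and CLDN5 lead the claudins at 216 and 40.5 RPKM, SLC2A3 and SLC2A6 stand above SLC2A1, and ABCC1 leads the pumps at 23.7 RPKM.

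Integrin genes were graded steeply. ITGA5, the fibronectin receptor alpha chain, had 759, 762 and 687 RPKM, and its partner ITGB1 465, 489.7 and 537 RPKM. ITGA5 exceeded ITGA6, a laminin receptor chain (64.1 ± 7.11 RPKM), 11.6 ± 1.83-fold, and ITGAV (44 ± 2.62 RPKM) 16.8 ± 1.9-fold. In all 12 of 24 were detected (50%, beside 46.5% of all entries). Of the others, ITGB5 (67.8 ± 11.8 RPKM), ITGB3 (51.1 ± 9.95 RPKM), ITGA3 (46.4 ± 1.22 RPKM) and ITGA2 (46.2 ± 5.91 RPKM) lay in the range of ITGA6 and ITGAV, and ITGB4, ITGA10, ITGA4 and ITGA1 between 3.25 and 11.4 RPKM. ITGA2B, the platelet chain, and ITGB6, ITGA7 and ITGA8 lay between 0.0158 and 0.0548 RPKM. The leukocyte chains ITGAL, ITGAM, ITGB7 and ITGB2 lay between 0.00332 and 0.0749 RPKM.

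Basement membrane genes were abundant and differed between libraries. Of 35 members, 25 were detected, 10 of them at 100 RPKM or more. SPARC, a collagen-binding matrix protein, had 666, 783 and 574 RPKM, FN1, fibronectin, 578, 513 and 333 RPKM, and HSPG2, perlecan, 355, 297 and 163 RPKM. All 3 genes were lowest in library 3. The type IV collagen chains COL4A2 and COL4A1, which are transcribed from a shared promoter region, had 160.2, 164 and 89 RPKM and 133, 142 and 75.8 RPKM, and their ratio stayed at 1.18 ± 0.0288. The laminin chains LAMB1 (194 ± 14.3 RPKM), LAMA4 (116 ± 13.4 RPKM) and LAMC1 (108 ± 12.9 RPKM), which together form a laminin of vascular basement membranes, stood above LAMA5 (17.3 ± 3.41 RPKM). LAMA1 and LAMA2 lay at 0.00478 and 0.135 RPKM. Of the fibrillar collagen genes, the type V chains COL5A2 and COL5A1 had 66.2, 75.5 and 59.2 RPKM and 40.2, 41.5 and 26.6 RPKM, both lowest in library 3. The type I and III chains were lower, with COL1A2 at 2.01, 3.83 and 0.776 RPKM, COL3A1 at 0.127 RPKM and COL1A1 at 0.0785 RPKM. COL4A3, COL4A4, COL15A1 and COL6A3 lay between 0.000948 and 0.0137 RPKM.

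Nutrient transporters were present in number, with amino acid and nucleoside carriers ahead of SLC2A1. Of 46 matched barrier solute carriers, 31 were detected (67.4%), and 32 without library 3, with a median of 6.51 RPKM. SLC38A2, a sodium-coupled neutral amino acid transporter, was the highest with 115, 116 and 113 RPKM. SLC29A1, the equilibrative nucleoside transporter ENT1, had 91.8, 88.2 and 93.4 RPKM. Both varied little between libraries.

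SLC3A2, the heavy chain shared by several amino acid exchangers, had 46.3, 40.9 and 41.9 RPKM. Its light chain partners were SLC7A5, LAT1, with 18.5, 13.9 and 17 RPKM, and SLC7A11, the cystine carrier, with 19.2, 14.8 and 21.8 RPKM. SLC3A2 exceeded SLC7A5 2.63 ± 0.27-fold per length. SLC1A5 had 39.2, 33.5 and 36.3 RPKM, and SLC7A1, the cationic amino acid carrier, 16.9, 13 and 16 RPKM. SLC16A1, the monocarboxylate carrier MCT1, had 36.8, 33.7 and 38.4 RPKM. SLC6A8, the creatine carrier, and SLC6A6, the taurine carrier, had 16.9, 17.3 and 11.4 RPKM and 10.9, 12 and 10.2 RPKM.

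Several carriers known as markers of brain endothelium were low or absent. MFSD2A, the transporter of docosahexaenoic acid as lysophosphatidylcholine, had 1.77, 1.57 and 2.97 RPKM, highest in library 3. SLC38A5, a neutral amino acid carrier, had 0.192, 0.166 and 0.367 RPKM. SLCO1C1, a thyroid hormone and organic anion carrier, SLC22A8, SLC22A3, SLC6A12 and SLC4A4 had no count. SLCO1A2, SLC6A13, SLC19A3, SLC38A3 and SLCO2B1 lay between 0.00413 and 0.0648 RPKM. SLCO2A1, a prostaglandin carrier, was uneven, with 1.72, 4.09 and 0.504 RPKM.

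SLC2A1, which encodes GLUT1 and is targeted by siRNA elsewhere in the study (hg19 chromosome 1, 43391046 to 43424847), had 6.64, 6.03 and 5.89 RPKM, a mean of 6.19 ± 0.398 RPKM. Its mean was above that of 68.7% of all entries, so that it ranked 7280. Of 16 glucose transporter genes, SLC5A1 and SLC5A2 included, 5 were detected. SLC2A3, GLUT3, had 14.5, 15.4 and 15.7 RPKM, and SLC2A6 had 16.3, 15.9 and 13 RPKM. The values of SLC2A3 and SLC2A6 overlapped, and each lay above SLC2A1 in every library, 2.47 ± 0.252-fold and 2.43 ± 0.22-fold on average. SLC2A3 shares near-identical sequence with SLC2A14, listed at 0.0116 RPKM, so that its level is uncertain to the extent that shared reads were left out.

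SLC2A8 had 5.71, 5.2 and 3.95 RPKM, below SLC2A1 in each library, and SLC2A11 was the other detected member with 1.3, 1.34 and 1.08 RPKM. SLC2A10 had 1.24, 1.72 and 0.891 RPKM, under 1 RPKM in library 3 only. SLC2A4, the insulin-responsive GLUT4, had 0.109, 0.06 and 0.106 RPKM, and the fructose transporter SLC2A5 and the kidney carrier SLC5A2 had 0.00446 and 0.0239 RPKM. SLC2A2, SLC2A7 and SLC5A1, of liver, gut and kidney, had no count.

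Efflux pumps were present at low levels apart from ABCC1. Of 13 ABC genes, 8 were detected. ABCC1, MRP1, had 25, 25.5 and 20.4 RPKM, and ABCC4, MRP4, 7.66, 7.89 and 7.53 RPKM. ABCB1, the P-glycoprotein, had 1.73, 1.69 and 1.97 RPKM, and ABCG2, the breast cancer resistance protein, 0.915, 1.04 and 0.824 RPKM, which passed 1 RPKM in library 2 only. ABCC1 exceeded ABCB1 13.3 ± 2.56-fold and ABCG2 25.5 ± 1.59-fold per length. The cholesterol exporters ABCA1 and ABCG1 had 1.39, 1.66 and 1.18 RPKM and 6.78, 7.26 and 7.22 RPKM. ABCC5 (3.93 ± 0.401 RPKM), ABCA2 (3.96 ± 0.692 RPKM) and ABCA7 (1.61 ± 0.297 RPKM) were the other detected members, and ABCB4 and ABCC6 lay at 0.0922 and 0.0389 RPKM.

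Genes of receptor-mediated transcytosis and caveolae were prominent. Of 25, 20 were detected, with a median of 38.7 RPKM. The caveolar genes PTRF, cavin 1, and CAV1 had 335, 340.4 and 325 RPKM and 309, 316 and 308 RPKM, and CAV2 had 35.8, 33.7 and 50.3 RPKM. BSG, basigin, the chaperone of monocarboxylate carriers, had 204, 197 and 189 RPKM. The transferrin receptor TFRC had 37.2, 32 and 46.9 RPKM and the insulin receptor INSR 0.971, 1.27 and 0.793 RPKM. FCGRT, the neonatal Fc receptor, had 56.8, 65.5 and 31.6 RPKM and was lowest in library 3. LRP1, which carries amyloid beta, had 1.07, 1.11 and 0.576 RPKM.

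**Figure D4:**
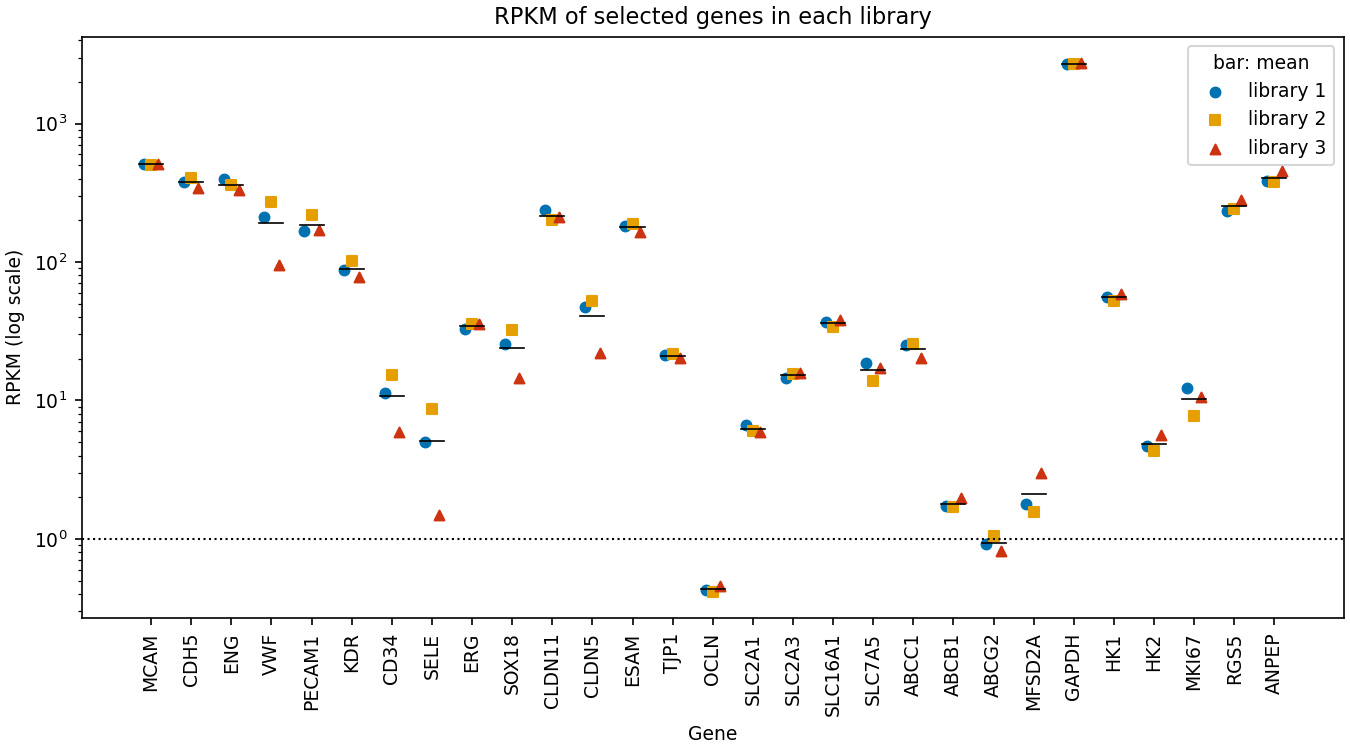
RPKM of 29 genes in each library (log scale), with the mean as a bar and 1 RPKM as a dotted line. MCAM, GAPDH and SLC2A1 are close together in the 3 libraries, while VWF, CD34, SELE, SOX18 and CLDN5 are lowest in library 3.

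Glycolytic genes ranged from some of the most abundant transcripts to tissue-restricted forms without a count. Of 33 members, 21 were detected and 10 had 100 RPKM or more, with a median of 15.1 RPKM. The hexokinase gene HK1 had 56.2, 52.2 and 58.7 RPKM and HK2 4.65, 4.29 and 5.64 RPKM, a ratio of 11.5 ± 0.998. HK3 had no count. Of the phosphofructokinase genes, PFKP had 126, 115 and 130.0 RPKM, PFKL 48.9, 50.6 and 36.5 RPKM and PFKM 29.5, 29.1 and 30.3 RPKM, and PFKP was the highest in every library. PFKFB3, which makes the activator of phosphofructokinase, had 15.9, 14.5 and 14.9 RPKM. ENO1 (565 ± 47.5 RPKM), PKM2 (551 ± 44.6 RPKM), TPI1 (369 ± 15.9 RPKM) and ALDOA (285 ± 13 RPKM) followed GAPDH. Levels are per gene entry, so that the symbol PKM2 does not mean that a splice form was measured. LDHB exceeded LDHA in each library, with 489, 493 and 557 RPKM against 271, 238 and 337 RPKM, a ratio of 1.84 ± 0.215. The monocarboxylate exporter gene SLC16A3, MCT4, had 51.2, 39.3 and 57.9 RPKM. The liver and germ cell forms PKLR and PGK2 had no count, and LDHC and PFKFB1 lay at 0.0158 and 0.0149 RPKM.

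Of 19 genes of the pentose phosphate, polyol and hexosamine branches, 18 were detected, with a median of 20.7 RPKM. PGD (276, 260.3 and 289 RPKM) and TKT (247, 238 and 212 RPKM) of the pentose phosphate pathway led. AKR1B1, aldose reductase, had 140.5, 131 and 135 RPKM, and SORD, the next enzyme of the polyol branch, 17.8, 14.7 and 20.6 RPKM. GLO1, which detoxifies methylglyoxal, had 109, 103 and 119 RPKM. Of the hexosamine entry genes, GFPT1 had 9.02, 8.82 and 10.6 RPKM and GFPT2 12.3, 11.2 and 14 RPKM, the higher in every library. TKTL1 was the member under 0.1 RPKM, at 0.0212 RPKM.

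Of 37 tricarboxylic acid cycle and pyruvate entry genes, 32 were detected, with a median of 27.8 RPKM. MDH2 (147, 143 and 153 RPKM) and CS, citrate synthase (109, 108 and 105 RPKM), were the highest. Of the pyruvate dehydrogenase kinases, which inhibit entry of pyruvate, PDK2 had 7.23, 8.01 and 6.57 RPKM and PDK1 2.56, 2.5 and 2.79 RPKM, while PDK3 and PDK4 lay near 1 RPKM with 1.11, 1.04 and 1.05 RPKM and 0.992, 1.58 and 0.872 RPKM. PCK1 had no count and G6PC 0.00328 RPKM, both enzymes of gluconeogenesis.

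Of 37 nuclear respiratory chain genes, 35 were detected, the exceptions being COX4I2 and COX6A2 with no count. Their median was 68.5 RPKM, and their median CV of 5.49% was below the 9.88% of all detected entries. ATP5B had 433, 416 and 441 RPKM and COX4I1, the common form of the subunit that COX4I2 replaces, 269.7, 270.5 and 281 RPKM. The table holds no entries of the mitochondrial genome.

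Among 37 genes of fatty acid, sterol and amino acid metabolism, 30 were detected, with a median of 17.9 RPKM. FABP5 (199, 202 and 219 RPKM) stood above FABP4 (8.9, 13.1 and 11.6 RPKM), the fatty acid binding protein often used as a capillary marker. SCD, the stearoyl-CoA desaturase, had 178, 156 and 182 RPKM and CPT1A, the entry enzyme of fatty acid oxidation, 18.8, 22 and 18.7 RPKM. PHGDH, the entry enzyme of serine synthesis, had 16.4, 12.4 and 10.1 RPKM. ACADL, an acyl-CoA dehydrogenase, had no count, and CPT1B, OTC and ARG1 lay between 0.0105 and 0.0341 RPKM.

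Genes of coagulation and fibrinolysis were mostly high. Of 21 members, 18 were detected and 9 had 100 RPKM or more, with a median of 74 RPKM. PLAT, the tissue plasminogen activator, had 111, 114 and 185 RPKM, highest in library 3. ANXA2 (1493, 1519 and 1614 RPKM) and S100A10 (264, 296 and 306 RPKM), which together bind plasminogen at the cell surface, were abundant, as was THBS1 (1406, 1597 and 1004 RPKM), thrombospondin 1. F3, tissue factor, had 0.304, 0.257 and 0.458 RPKM, and THBD, thrombomodulin, 4.05, 5.59 and 5.07 RPKM. F8, which some endothelia produce, had 0.15, 0.241 and 0.142 RPKM.

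Of 25 vasoactive genes, 14 were detected (56%, beside 46.5% of all entries). EDN1, endothelin 1, had 154, 149 and 113 RPKM and ECE1, its converting enzyme, 198, 218 and 162 RPKM. EDNRB, the endothelin receptor of endothelium, had 0.897, 1.18 and 0.826 RPKM, with only library 2 above 1 RPKM, and EDNRA 0.0186 RPKM. ACE had 14.6, 22.6 and 16.7 RPKM, whereas the angiotensin receptor AGTR1 lay at 0.00496 RPKM and AGTR2 had no count. PTGS1 (14.9, 20.5 and 8.05 RPKM) was lowest in library 3 and PTGS2 (4.31, 5.07 and 7.14 RPKM) highest there. NOS2 and the bradykinin receptors BDKRB1 and BDKRB2 had no count.

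Notch and BMP signalling genes were largely present, 25 of 30. TGFBR2 had 193, 214 and 189 RPKM and ACVRL1, the endothelial BMP9 receptor ALK1, 87, 92.3 and 65.9 RPKM, while TGFBR1 had 1.81, 1.36 and 1.88 RPKM. NOTCH1 (25.7, 25.6 and 16.9 RPKM) stood above NOTCH4 (10.2, 9.89 and 7.86 RPKM), and NOTCH3, the mural form, had 0.147, 0.298 and 0.0905 RPKM. DLL4 and JAG1, ligands with opposing roles in sprouting, had 4.33, 5.59 and 3.92 RPKM and 14.3, 13.9 and 14.9 RPKM. ID3 and ID1, targets of BMP signalling, had 122, 118 and 103 RPKM and 29, 22.7 and 31.2 RPKM. BMPR1A was the member under 0.1 RPKM, at 0.0107 RPKM. BMPR1A has a near-identical pseudogene copy, so that this low level is uncertain.

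Of 19 tip cell and angiogenic genes, 15 were detected. APLN, apelin, had 183, 186 and 161 RPKM while its receptor APLNR had 0.0197, 0.268 and 0 RPKM. ESM1, a tip cell proteoglycan, had 92.1, 61.1 and 153 RPKM, highest in library 3 and lowest in library 2. ANGPT2, the endothelial ligand of TEK, had 15.4, 12.6 and 23.5 RPKM and exceeded ANGPT1 (0.538, 0.337 and 0.835 RPKM) 31.4 ± 5.24-fold. PGF had 71.7, 69.7 and 59 RPKM, VEGFC 18.5, 15.2 and 18.5 RPKM and VEGFA 3.52, 3.2 and 3.43 RPKM.

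Interferon-response and antigen presentation genes were detected for 27 of 34 members, with a median of 15.6 RPKM. IFI27 (530.2, 467 and 393 RPKM), IFI6 (233, 187 and 137 RPKM) and ISG15 (144, 152 and 124 RPKM), all induced by interferon, were the highest members outside the class I genes. MX1 and OAS1, antiviral effectors, had 23.6, 28.3 and 24.3 RPKM and 31.1, 36.1 and 30.1 RPKM. The interferon genes were low, with IFNB1 at 0.0496 RPKM, IFNA1 at 0.0182 RPKM and no count for IFNG. B2M, the light chain of class I molecules, had 1064, 1163 and 1073 RPKM, and the class I heavy chain entries HLA-B, HLA-C and HLA-E lay between 128 and 216 RPKM. In contrast, CIITA, the switch of class II genes, and HLA-DRA had no count. Without untransfected cells, the level of these genes in the absence of siRNA was not measured.

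Of 26 cytokine and chemokine genes, 12 were detected, 46.2% beside 46.5% of all entries. The detected members had the widest spread of the lists described here, a median CV of 34.4% against 9.88% of all detected entries. CCL2, which draws monocytes, had 99.3, 149 and 45.7 RPKM, highest in library 2 and lowest in library 3. IL8 (19.6, 19.7 and 43.5 RPKM) and CXCL1 (43, 50.4 and 64.8 RPKM), which draw neutrophils, were highest in library 3. IL6 had 7.14, 7.74 and 10.5 RPKM. CSF1 (10.3 ± 2.94 RPKM), CXCL2 (9.35 ± 5.07 RPKM), CXCL6 (5.54 ± 2.7 RPKM), CSF3 (5.07 ± 1.44 RPKM), CXCL3 (2.76 ± 1.09 RPKM) and IL1A (1.63 ± 0.798 RPKM) were lower, and the NF-kB feedback genes NFKBIA and TNFAIP3 had 52.6 ± 11.4 RPKM and 3.61 ± 1.06 RPKM. TNF had no count, and CXCL12 and IL11 had 0.00241 and 0.0402 RPKM.

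Cell cycle genes were present throughout. All 36 genes of mitosis, S phase and cell cycle control were detected, with a median of 19.1 RPKM. MKI67 had 12.4, 7.74 and 10.6 RPKM, CDK1 11.7, 9.25 and 17.5 RPKM, TOP2A 25.1, 17.9 and 30.5 RPKM and PCNA 56.5, 48.6 and 88 RPKM. CDKN1A, the p21 inhibitor of cyclin-dependent kinases, was the highest of the list with 315, 326 and 278 RPKM, and CCND1, cyclin D1, had 135, 118 and 138 RPKM.

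Markers of other cell types were mostly absent, with a small number of high exceptions. Over 8 lists together, 20 of 113 genes were detected (17.7%, against 46.5% of all entries), and 22 without library 3. No count was found for 45, and the median was 0.0106 RPKM. The contractile list of smooth muscle differed, with 54.5% detected. In the microglia and leukocyte list, 0 of 23 were detected and 17 had no count, among them AIF1, CX3CR1, P2RY12, TMEM119, CD3E and HBB. PTPRC, CD45, had 0.00511 RPKM, and the summed level of the list was 0.225, 0.758 and 0.305 RPKM.

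Of 10 astrocyte genes, 1 was detected, ALDOC, a glycolytic enzyme, with 5.81, 7.12 and 5.07 RPKM. GFAP had 0.0132 RPKM, SLC1A3 0.00262 RPKM, and AQP4, ALDH1L1, SLC1A2, GJB6, SOX9 and S100B had no count. The summed level was 5.98, 7.3 and 5.26 RPKM. Of 10 oligodendrocyte genes, CNP (30.8, 32.3 and 28.5 RPKM) and MBP (1.11, 1.16 and 1.26 RPKM) were detected, while MOG, OLIG1, OLIG2 and SOX10 had no count and MAG had 0.0102 RPKM. The summed level was 32.3, 33.8 and 30.1 RPKM. Of 16 neuronal genes, TUBB3 (39.5, 34.4 and 39.6 RPKM), SYT1 (5.55, 5.66 and 7.14 RPKM) and MAP2 (2.86, 3.01 and 2.21 RPKM) were detected, while RBFOX3 had 0.0106 RPKM and SYN1, NEFM, NEFL and GAD1 lay between 0.00283 and 0.0263 RPKM. STMN2, ELAVL3, ELAVL4, DCX, GAD2 and SLC17A6 had no count, and the summed level was 48.2, 43.3 and 49.2 RPKM.

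The pericyte list was detected for 2 of 13 members, both at a high level. ANPEP, the aminopeptidase CD13, had 384, 377 and 458 RPKM, and RGS5, a regulator of G protein signalling, 233, 243 and 281 RPKM. Both were highest in library 3. PDGFRB, the defining pericyte receptor, had 0.0602, 0.0165 and 0.0479 RPKM, CSPG4 0.0127 RPKM, ABCC9 0.253 RPKM, KCNJ8 0.00661 RPKM, ATP13A5 0.00349 RPKM, and DES and COX4I2 had no count. The summed level was 618, 621 and 739.9 RPKM, nearly all of it from ANPEP and RGS5.

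Of 11 contractile genes of smooth muscle, 6 were detected (54.5%, beside 46.5% of all entries). TPM2 (116, 101 and 116 RPKM), CALD1 (59.5, 55.5 and 59.4 RPKM), SMTN (40.5, 33.4 and 40.6 RPKM) and ACTA2 (10.3, 11.5 and 9.99 RPKM) led, and MYLK and TAGLN had 3.26 ± 0.17 RPKM and 2.56 ± 0.786 RPKM. MYH11, CNN1, LMOD1 and SYNPO2, of the differentiated muscle cell, lay between 0.0202 and 0.0452 RPKM, and MYOCD had no count. The summed level was 232, 208 and 231 RPKM.

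Of 13 fibroblast genes, VIM alone was detected in all 3 libraries. COL1A2 passed 1 RPKM in libraries 1 and 2 with 2.01, 3.83 and 0.776 RPKM, and so did FAP with 1.13, 1.22 and 0.646 RPKM. DCN (0.152, 0.282 and 0.449 RPKM), LUM (0.0972 RPKM), PDGFRA (0.0694 RPKM) and THY1 (0.0131 RPKM) were low. COL1A1, FBLN1 and MFAP5 were under 0.1 RPKM too, and DPT had no count. The summed level of 2343, 2617 and 2036 RPKM was nearly all VIM. In the epithelial list, 5 of 18 were detected, the simple keratins KRT18 (169, 157 and 169 RPKM), KRT7 (21.9, 14.3 and 19 RPKM), KRT8 (6.69, 7.23 and 5.33 RPKM) and KRT19 (27.9, 22.4 and 72.2 RPKM) with CLDN7. KRT19 was highest in library 3. The KRT8 entry (hg19 chromosome 12, 53290971 to 53343650) overlaps the KRT18 entry (53342655 to 53346685). How reads in the overlap were counted is not known, so that the KRT8 level is uncertain. CDH1, the epithelial cadherin, and GRHL2, OVOL1, KRT5 and KRT14 had no count, and EPCAM had 0.178, 0.11 and 0.213 RPKM. The hepatic and choroid plexus genes ALB and TTR had no count, and ELF3, ESRP1 and CLDN4 were under 0.1 RPKM. The summed level was 231, 205 and 271 RPKM. A small number of cells of another type and a low level in every cell cannot be told apart in bulk RNA.

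The 3 libraries agreed closely over the whole table. Across the 16997 entries with a count, Pearson's r of log2(RPKM + 0.1) was 0.992 between libraries 1 and 2, 0.990 between 1 and 3, and 0.988 between 2 and 3, and Spearman's rho was 0.988, 0.986 and 0.984. These are correlations across genes, which are not independent replicates. The median CV of the 10819 detected entries was 9.88%, with 430 entries above 30% and 61 above 50%. It was 11.1% for detected entries under 10 RPKM, 8.94% from 10 to 100 RPKM and 7.92% at 100 RPKM or more. The 626 entries that reached 1 RPKM in 1 or 2 libraries only are left out here and in the 2-fold and deviation counts below. They include SLCO2A1 (CV 86.7%) and VCAM1 (CV 75.2%), so that the spread given may be too small. The biological coefficient of variation from edgeR was 0.153 over the 3 libraries. Its model takes each count as independent, so that this value and those of library pairs below are uncertain if counts came in pairs.

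Libraries 1 and 2 were closer to each other than either was to library 3. The median absolute log2 ratio of detected entries was 0.099 between libraries 1 and 2, 0.19 between 1 and 3 and 0.22 between 2 and 3. A 2-fold difference or more separated libraries 1 and 2 at 24 entries, libraries 1 and 3 at 77, and libraries 2 and 3 at 192. The biological coefficient of variation was 0.0827 for libraries 1 and 2 alone and 0.160 and 0.193 for the pairs with library 3, and the median CV without library 3 was 4.85%. Set against the mean log2 level of the other 2 libraries, library 3 was at least 1 log2 unit higher at 69 entries and lower at 45. The same counts were 8 and 5 for library 1 and 19 and 25 for library 2.

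Among entries with a mean of 10 RPKM or more, the 10 with the largest ratio of highest to lowest were MIR4482-1, SERPINB2, MMP1, BGN, CCL2, KRT19, MYEOV, IL1RL1, POLR3G and VWF. Library 3 held the highest value for 7 of them and the lowest for BGN, CCL2 and VWF. MMP1, the interstitial collagenase, had 172, 202 and 619 RPKM, a ratio of 3.61. SERPINB2, the plasminogen activator inhibitor PAI-2, had 6.14, 5.39 and 22.1 RPKM, and IL1RL1, the IL-33 receptor, 88.3, 63.4 and 191 RPKM. BGN, the proteoglycan biglycan, had 166, 211 and 61.8 RPKM. MIR4482-1, an entry of 70 bases, rested on 36, 18 and 178 counts.

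By gene group, libraries 2 and 3 lay on opposite sides for several lists. Mitosis and S phase genes were lowest in library 2 for 34 of 36 members and highest in library 3 for 31, beside 40.1% and 48.4% of all detected entries. Their median deviation from the mean of the other 2 libraries was -0.54 in library 2 and 0.39 in library 3 on the log2 scale, against -0.04 and 0.04 over all detected entries. The 3 deviations of a gene cancel by construction, so that some opposition of sign is built into this measure. Basement membrane and collagen genes were lowest in library 3 for 21 of 25, beside 35.9% of all, with a median deviation of -0.47.

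Endothelial surface markers were highest in library 2 for 19 of 27 members, beside 26.7% of all detected entries, and lowest in library 3 for 18. Their median deviation was 0.23 in library 2 and -0.20 in library 3. Interferon and antigen presentation genes were highest in library 2 for 21 of 27, and venous genes for 7 of 7. Endothelial transcription factors moved less, with median deviations of 0.12 and -0.10. CLDN5 and VWF varied alike, and their ratio was 0.221, 0.194 and 0.234 in libraries 1, 2 and 3. Members of a list share the libraries, so that these counts describe the 3 libraries and not a condition, and what sets library 3 apart was not tested.

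**Figure D5:**
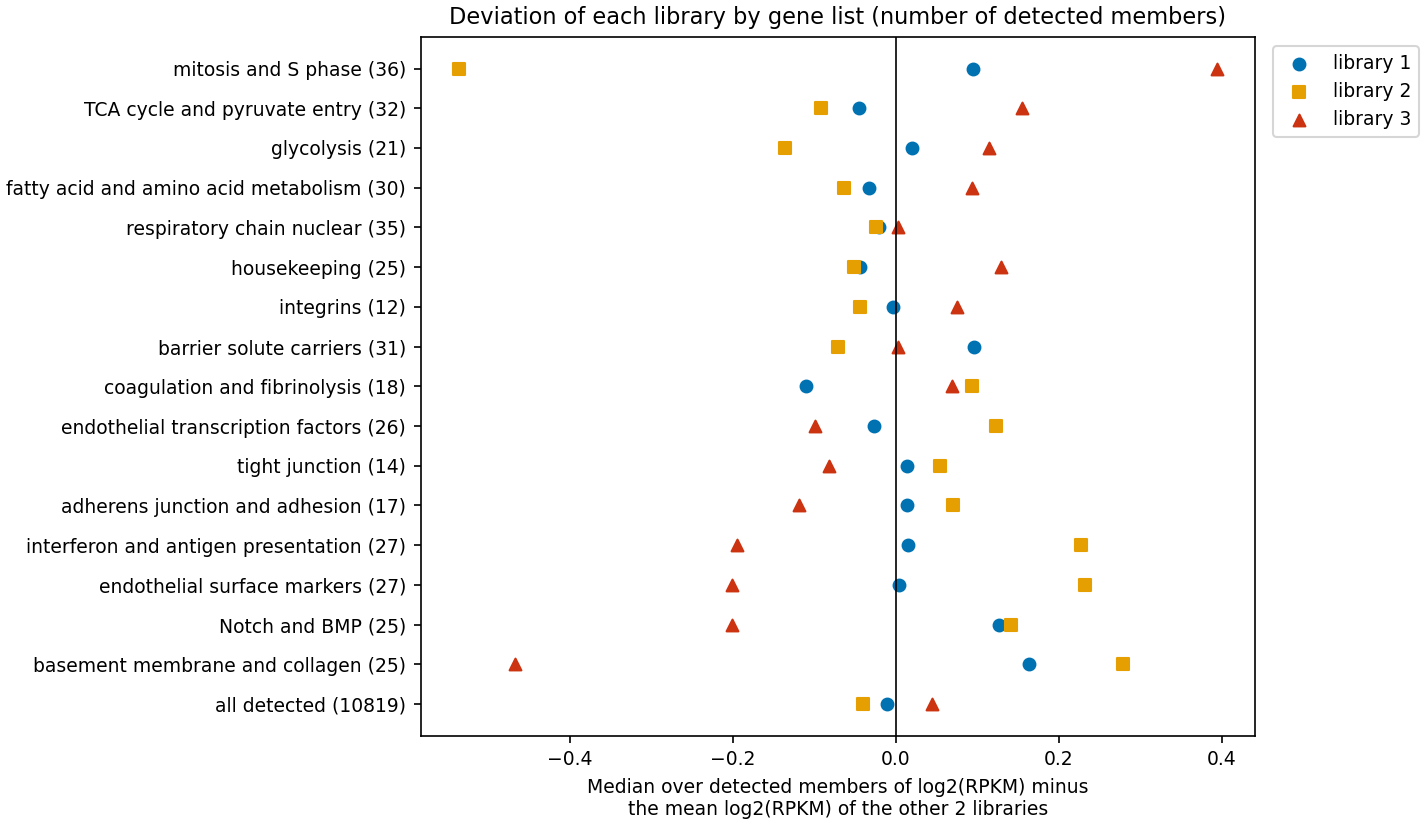
Median over the detected members of each gene list of log2(RPKM) in a library minus the mean log2(RPKM) of the other 2 libraries, with the number of detected members in brackets. Mitosis and S phase genes lie at -0.54 in library 2 and 0.39 in library 3, and basement membrane genes at -0.47 in library 3.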

How the data were processed

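RNA of human brain microvascular endothelial cells was isolated with RNeasy columns, and per the labels' protocols both a TruSeq stranded mRNA kit and a SMARTER kit were used for libraries. The submitters' processing notes name hg19 and DESeq2 without versions, and no source used here gives the aligner, counter, annotation or use of strand. Counts were deposited as whole numbers, every one even in the 3 libraries (0 odd values). The deposited RPKM values were made by the authors from counts, entry length and a library total 1.06 times the summed counts. Of 23398 entries, 147 were left out: 123 on the Y chromosome, XIST and 23 names on both X and Y. No count column equalled another or the mean of the other 2. Per-sample columns without a sample numbered 0.

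Medians, percentiles, CVs and correlations were computed with pandas 2.3.3, and the biological coefficient of variation with edgeR 4.0.16 after a check on simulated data. The simulated counts were not drawn in pairs. DESeq2 1.42.0 gave alternative size factors. The design is 1 group, so no test was made. Sensitivity to thresholds, unit, scaling, pseudocount (0.1 in the main analysis) and single libraries was tried.

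The gene lists and members were chosen with earlier results of these data known. Genes were named from the 5 markers PECAM1, CDH5, VWF, CLDN5 and SLC2A1, the 20 highest entries of at least 200 bases, the 6 highest members of each list, the members under 0.1 RPKM and the detected members where these were 12 or fewer, the opening member of each list of other cell types, and the 10 entries of at least 10 RPKM with the largest ratio between libraries. Other members were picked after their values were seen to show the range. Genes with near-identical or overlapping copies are uncertain. Some genes that this rule names are not reported here.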

Additional observations from a re-analysis of the deposited data

How the results depend on the processing

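All 6 counts of detected entries or list members stayed within 1.5 times their value under minima of 0.5 or 2 RPKM, a mean in place of every library, TPM, CPM and the omission of each library. This limit is loose, because omission of a library can only raise such a count or leave it. Lists near full, such as the endothelial surface markers at 27 of 28, also had little room to rise. Of 68 alternatives, 60 stayed within the stated limits and 8 moved a value. The percentile of SLC2A1 was 68.7 and became 70.2 on CPM and 57.2 among entries with a count. The median Pearson correlation was 0.990. It became 0.9936 with a pseudocount of 1, 0.974 with 0.01, 0.986 over detected entries only and 0.986 as Spearman's rho, and it ran from 0.988 to 0.992 without each replicate in turn. The median CV ran from 4.85% to 10.6% without each replicate, the lowest without library 3. Its limit was the SD of these same values, so that library 3 widened the limit set for it. No paired analysis was possible because no groups were compared. Depth limits entries under about 0.1 RPKM, and 3 libraries limit the precision of every SD.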

Other observations

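Gene families outside the lists, picked by symbol after their values were seen, were also read in the 3 libraries. Of 39 HOX entries, which record position along the body axis during development, 20 were detected (51.3%, beside 46.5% of all entries). HOXB7 (20.7, 20.6 and 28.7 RPKM), HOXA5 (14.9, 17.5 and 12.9 RPKM) and HOXB4 (11, 9.71 and 11.5 RPKM) were the highest. By cluster, 10 of 11 HOXA, 7 of 10 HOXB, 0 of 9 HOXC and 3 of 9 HOXD entries were detected. HOXA13, HOXB13, HOXC13 and HOXD13, the most posterior members, had no count.

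The matrix-degrading enzymes MMP14 (357, 363 and 349 RPKM), MMP1 and MMP2 (193, 219 and 134 RPKM) were the highest of 24 metalloproteinase entries, of which 9 were detected. Their inhibitors TIMP2 and TIMP1 had 168, 195 and 156 RPKM and 148, 159 and 155 RPKM, while TIMP3 had 0.0665 RPKM. Among 14 Eph receptor entries, EPHA2 (64.5, 60.2 and 62.4 RPKM) and EPHB2 (40.7, 39.7 and 39.3 RPKM) followed EPHB4. SEMA3F (72.3, 70.6 and 76 RPKM) and SEMA6B (53.1, 50.6 and 36.1 RPKM) led 20 semaphorins.

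Of 73 histone entries of the replication-linked clusters, 5 were detected, although mitosis genes were. Most of their transcripts lack a poly(A) tail, and whether library preparation sets their level was not tested. HIST1H2BK was the highest with 11.2, 12.3 and 14.2 RPKM. Of 56 keratin entries, 7 were detected, and of 18 S100 entries 6, led by S100A6 (947, 1035 and 1439 RPKM) and S100A16 (754, 724 and 616 RPKM).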
